A study of Rattus norvegicus with 125 samples.

Results

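The expression of the normal rat liver was set against that of the brain, heart and kidney of the same animals. The arrays were chosen by their labels: 4 livers, 4 brains, 4 hearts and 4 kidneys, all from rats 126, 132, 138 and 156, which makes 16 of the 125 arrays of the series. These rats were adult male Sprague-Dawley animals that had been in the air arm of a whole-body inhalation study of phosphine (PH3), a fumigant gas, and their organs were taken 6 h after the exposure. The organs were frozen and powdered whole, so each array shows the RNA of every cell type of the organ, and fewer cells of a type and less RNA per cell cannot be told apart. PH3 rats (387 ppm for 40 min) were looked at beside them. These gave 4 livers, 4 brains, 4 hearts and 4 kidneys at 6 h and 3 livers at 3 h. The 10 Air lungs that were also looked at came from other rats, at 3 h, 24 h or 1 week.

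The liver makes most of the proteins of blood plasma, turns surplus amino nitrogen into urea, releases glucose in fasting, makes bile acids from cholesterol, and oxidises and conjugates drugs and hormones. Most of this work is done by hepatocytes, which share the organ with Kupffer cells (its resident macrophages), sinusoidal endothelium, stellate cells and bile duct cells. Hepatocyte genes are known to be switched on by a small group of transcription factors, among them the FOXA, HNF4 and C/EBP families.

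Values are log2 signals, so a difference of 1 is a doubling. For each probe set, a group of probes for 1 transcript, the margin was the liver mean minus the highest of the other organ means, and a probe set was called enriched where the liver was above brain, heart and kidney at once (limma, the largest of the 3 p-values, Benjamini-Hochberg adjusted p under 0.05). The deficit, for depleted probe sets, was the liver mean minus the lowest of the other organ means. Where a gene had several probe sets, the 1 with the highest average signal on the 16 arrays stood for it.

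The arrays had medians of 5.14 to 5.15 in liver, 5.48 to 5.52 in brain, 5.19 to 5.25 in heart and 5.34 to 5.40 in kidney. Some arrays of the other organs stood apart in liver transcripts. The 27 enriched genes of the list of plasma carriers and inhibitors averaged 12.09 to 12.27 in the 4 livers. In brain they averaged 5.36 in rat 156, against 4.47 to 4.55 in the other rats, and in heart 4.72 in rat 156, against 4.09 to 4.22. In kidney they averaged 6.00 and 5.93 in rats 132 and 138, and 5.55 and 5.51 in rats 126 and 156. The margins of albumin, A1bg and Akr1b7 are also given without rat 156, and for the genes with the largest margins the range without it.

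Of 13439 genes, 1767 were enriched in liver (13.1%) and 1373 were depleted (10.2%). Among all 19069 probe sets with 1 gene symbol the counts were 2411 (12.6%) and 1616 (8.47%). The median margin was -0.48 over all genes and 0.95 over the enriched ones, so the typical enriched gene lay less than a doubling above the next organ. A smaller group stood far above the rest: 832 enriched genes had a margin of at least 1, 393 of at least 2, 187 of at least 4, 114 of at least 6 and 53 of at least 8. In 1630 of the 1767 enriched genes every liver array lay above the 12 others, an arrangement found in 13.4% of all genes.

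Kidney was the nearest organ. It was the next highest organ for 1050 of the enriched genes, heart for 494 and brain for 223. By single organ, the liver was higher than brain in 45.6% of probe sets and lower in 30.3%, higher than heart in 30.2% and lower in 30.4%, and higher than kidney in 26.7% and lower in 27.8% (limma, adjusted p under 0.05). The split between higher and lower depended on how the arrays were scaled: liver was the higher organ in 49% of the calls against kidney with the deposited values and in 69.9% when the 16 arrays were set to the same median, which moves the median liver minus kidney difference of all probe sets to 0.28, against 0.05 with the deposited values.

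The genes with the largest margins were carriers, clotting and complement proteins, apolipoproteins, protease inhibitors and P450 enzymes. Fabp1, the fatty acid binding protein of hepatocytes, had signals of 13.24, 13.22, 12.99 and 13.20 in the 4 livers (in the order of rats 126, 132, 138 and 156, which is kept below), against 3.41, 3.30, 3.26 and 4.97 in brain, 3.43, 3.54, 3.51 and 3.64 in heart and 3.45, 3.84, 3.70 and 3.45 in kidney. The livers stood close together and far above every other array, and the highest of the others was the brain of rat 156. The margin was 9.43 ± 0.26 (SE, n = 4, adjusted p = 3.88e-14).

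Next came Serpina3l, a serine protease inhibitor gene (9.27), and Itih4, an acute-phase protein of the inter-alpha-trypsin inhibitor family (9.21). Tdo2, which opens the tryptophan ring as the first step of its breakdown, had signals of 12.86, 12.61, 12.87 and 12.68 in liver, against 3.44, 3.59, 3.40 and 3.77 in brain, 3.28, 3.25, 3.43 and 3.44 in heart and 3.57, 3.47, 3.54 and 3.30 in kidney. The other organs lay below the lower quartile of their arrays, and the margin was 9.21 ± 0.13 (adjusted p = 5.7e-17). Over the 24 genes with the largest margins the liver mean was 12.18 to 13.58 and the margin 8.71 to 9.43, with adjusted p-values of 5.7e-17 to 1.12e-10. Other organs often lay near the lower quartile of their arrays (3.80 to 3.96 over brain, heart and kidney), where signals have no order, and the livers lay near the highest signal, so the order of these 24 genes among themselves carries little. In 23 of the 24, the brain of rat 156 was the highest of the 4 brains, and without that rat the margins were 8.62 to 9.49.

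**Figure D1:**
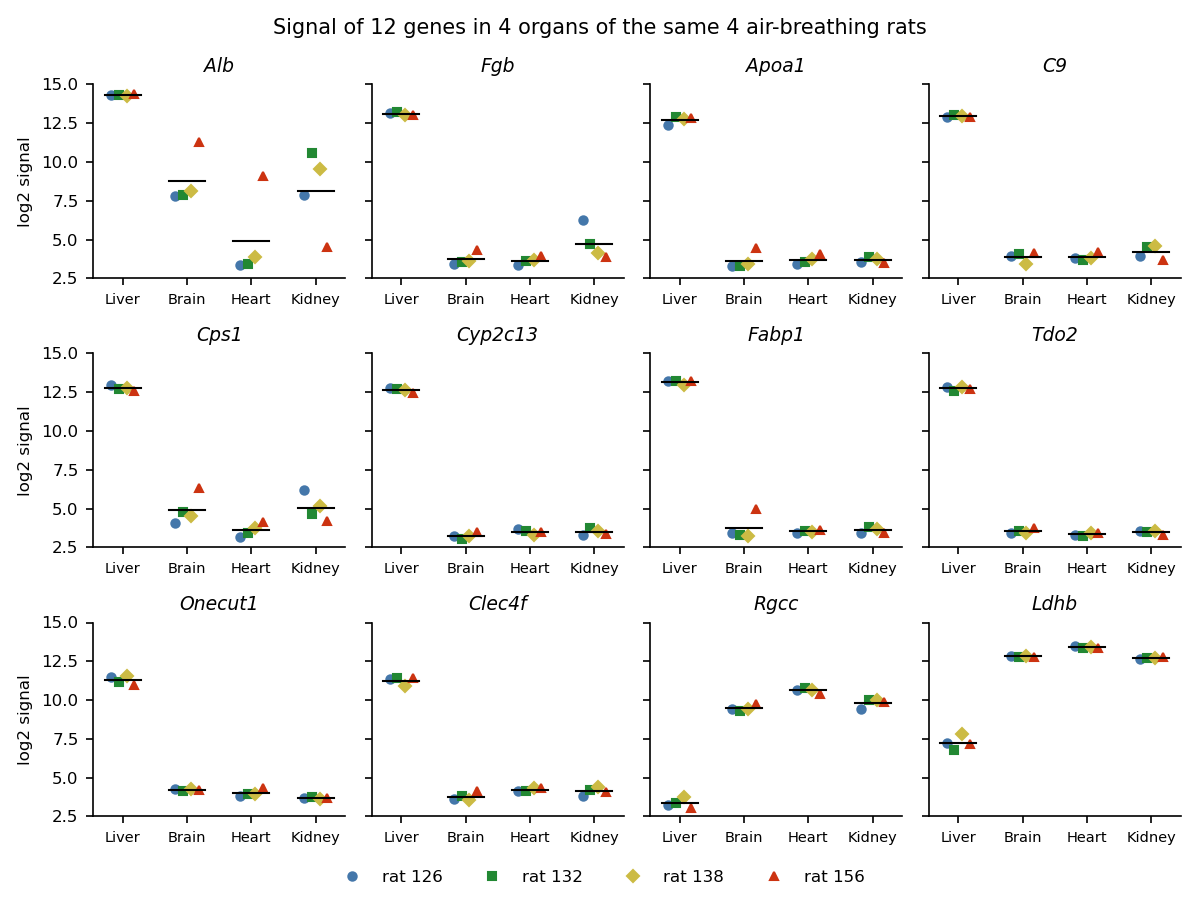
Log2 signals of 12 genes in liver, brain, heart and kidney of the 4 Air rats. Each symbol is 1 array, coloured by rat, and the black line is the mean of 4. The first 10 genes are high in all livers, with albumin (Alb) also above the other brains and hearts in rat 156, while Rgcc and Ldhb are low in all livers.

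Plasma carriers and inhibitors were enriched almost throughout: 27 of 29 measured genes, with a median margin of 6.10. Ahsg, which encodes fetuin A, had a margin of 8.91 ± 0.28, Hpx, the haem carrier hemopexin, 8.71 ± 0.23, Serpina6, the corticosteroid carrier, 8.81 ± 0.12, and Serpind1, a thrombin inhibitor, 8.71 ± 0.17. Albumin (Alb), the most abundant plasma protein, reached 14.34, 14.34, 14.27 and 14.38 in liver. Outside the liver it ranged widely, with 7.81, 7.87, 8.12 and 11.29 in brain, 3.38, 3.40, 3.86 and 9.09 in heart and 7.85, 10.58, 9.53 and 4.52 in kidney. The brain and heart of rat 156 and the kidneys of rats 132 and 138 were the high ones, the same arrays that were high in the other plasma genes. Their part in the signal of the single genes was not tested. The margin of albumin was 5.56 ± 1.25 (adjusted p = 0.00474), and it was 4.995 ± 0.401 without rat 156 (adjusted p = 9.53e-07). A second albumin probe set had a margin of 7.58 ± 0.88 (adjusted p = 5.89e-06).

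The 2 exceptions on that list were proteins that other organs also make. Ttr, the transthyretin carrier of thyroxine that the choroid plexus secretes too, was 13.82, 13.75, 13.71 and 13.81 in liver, 13.57, 13.19, 13.56 and 13.46 in brain, 8.89, 8.75, 8.90 and 8.91 in heart and 4.61, 6.74, 6.42 and 4.63 in kidney. Liver and brain overlapped in no array but lay within 1 log2 unit, and the margin was 0.33 ± 0.33 (adjusted p = 1). Selenop, the selenium carrier, was 13.08, 12.90, 12.90 and 12.82 in liver and 13.11, 12.93, 12.98 and 12.90 in kidney, and these ranges overlapped; its other probe set was enriched by 1.78 ± 0.14.

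Apolipoproteins and the genes of lipoprotein assembly were enriched in 19 of 20 genes (median margin 5.49). Apoa1, the main protein of high-density lipoprotein, was 12.42, 12.92, 12.76 and 12.82 in liver, against 3.30, 3.32, 3.42 and 4.44 in brain, 3.42, 3.53, 3.75 and 4.08 in heart and 3.58, 3.89, 3.75 and 3.48 in kidney. All 4 livers were far above every other array, with the brain of rat 156 the nearest, and the margin was 9.04 ± 0.20 (adjusted p = 1.9e-15). Apoa2 (9.12), Apob (8.79), the structural protein of very-low-density lipoprotein, and Pon1 (8.94), an esterase carried on high-density lipoprotein, had margins of like size. Apoe, which glia also make, was enriched by only 0.43 ± 0.12 (adjusted p = 0.0258), with 13.44 ± 0.05 in liver and 13.01 ± 0.05 in brain (SD, n = 4 each). Apom, a carrier of sphingosine 1-phosphate, was the member that did not pass, at 11.87, 11.60, 11.65 and 11.76 in liver and 11.72, 11.59, 11.55 and 11.75 in kidney.

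Clotting genes were enriched in 14 of 16 (median margin 6.86). The 3 fibrinogen chains had margins of 8.98 ± 0.25 (Fgg), 8.35 ± 0.36 (Fgb) and 6.96 ± 0.31 (Fga). Their next organ was kidney, where Fga was 7.70, 6.33, 5.84 and 5.75, highest in rat 126. The plasma protease factors F9 (8.92) and Plg, plasminogen (8.15), were also far above the other organs. Of 3 Fgb probe sets, the other 2 were dim in every organ and not called. F3, tissue factor, the membrane protein that starts clotting outside the vessel, went the other way, at 5.03, 4.70, 4.75 and 4.66 in liver, against 6.93, 7.09, 7.31 and 7.33 in brain, 7.70, 7.84, 7.67 and 7.74 in heart and 9.04, 9.30, 8.58 and 8.28 in kidney. Every liver was below every other array, and the deficit was -2.38 ± 0.18 (adjusted p = 4.78e-08). F8, a clotting factor made by endothelium, was neither enriched nor depleted.

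Complement genes were enriched in 22 of 23 (median margin 4.64). C9, part of the membrane attack complex, was 12.87, 13.03, 13.001 and 12.94 in liver, against 3.93, 4.05, 3.43 and 4.12 in brain, 3.82, 3.70, 3.81 and 4.18 in heart and 3.96, 4.50, 4.57 and 3.69 in kidney. The livers again lay far from all other arrays (8.78 ± 0.20, adjusted p = 3.68e-15). Mbl2, a lectin that starts 1 of the complement pathways, had 8.89 ± 0.13 and C8a 7.92 ± 0.12. Masp2, a protease of the lectin pathway, was the gene not called, as its brightest probe set on average was not enriched (-0.73). Its other 2 probe sets had margins of 6.14 and 6.15 (adjusted p = 1.25e-15 and 1.07e-15).

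Of the acute-phase list, 15 of 20 genes were enriched (median margin 3.39). The receptor Il6r was among them (3.18). The 5 that were not were the secreted proteins A2m (0.55) and Lcn2 (-1.20), the receptor Il1r1 (0.20) and the signal carriers Stat3 (-0.60) and Socs3 (0.06). Hamp, which encodes the iron hormone hepcidin, was 13.03, 12.50, 12.88 and 12.93 in liver and 9.31, 10.82, 10.59 and 10.13 in heart, against 4.01 to 5.14 in brain and 4.44 to 4.83 in kidney. Heart was the clear second organ, and the margin of 2.62 ± 0.25 (adjusted p = 6.22e-07) was set by it. In the iron and haem list 10 of 16 genes were enriched, among them Tfr2, an iron sensor of hepatocytes (6.40), and Hfe, its partner (3.37). Bmp6 (-0.64) and Slc48a1 (-0.59) had deficits that passed. No other probe set of Bmp6 was depleted, while the other probe set of Slc48a1 was.

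The lists above, and those of liver functions, factors and cells below, hold textbook liver genes. A high count in them was therefore known in advance and reads as a check of the tissue label. Over all genes the share of enriched ones was 13.1% and that of depleted ones 10.2%. The counts of every list, above and below, stand beside these shares, and a count near them says nothing particular about its list. Some genes stand in several lists, among them Hp, Hpx, Cp, Hamp, the fibrinogen chains and the C1q genes, so the counts are not separate results.

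**Figure D2:**
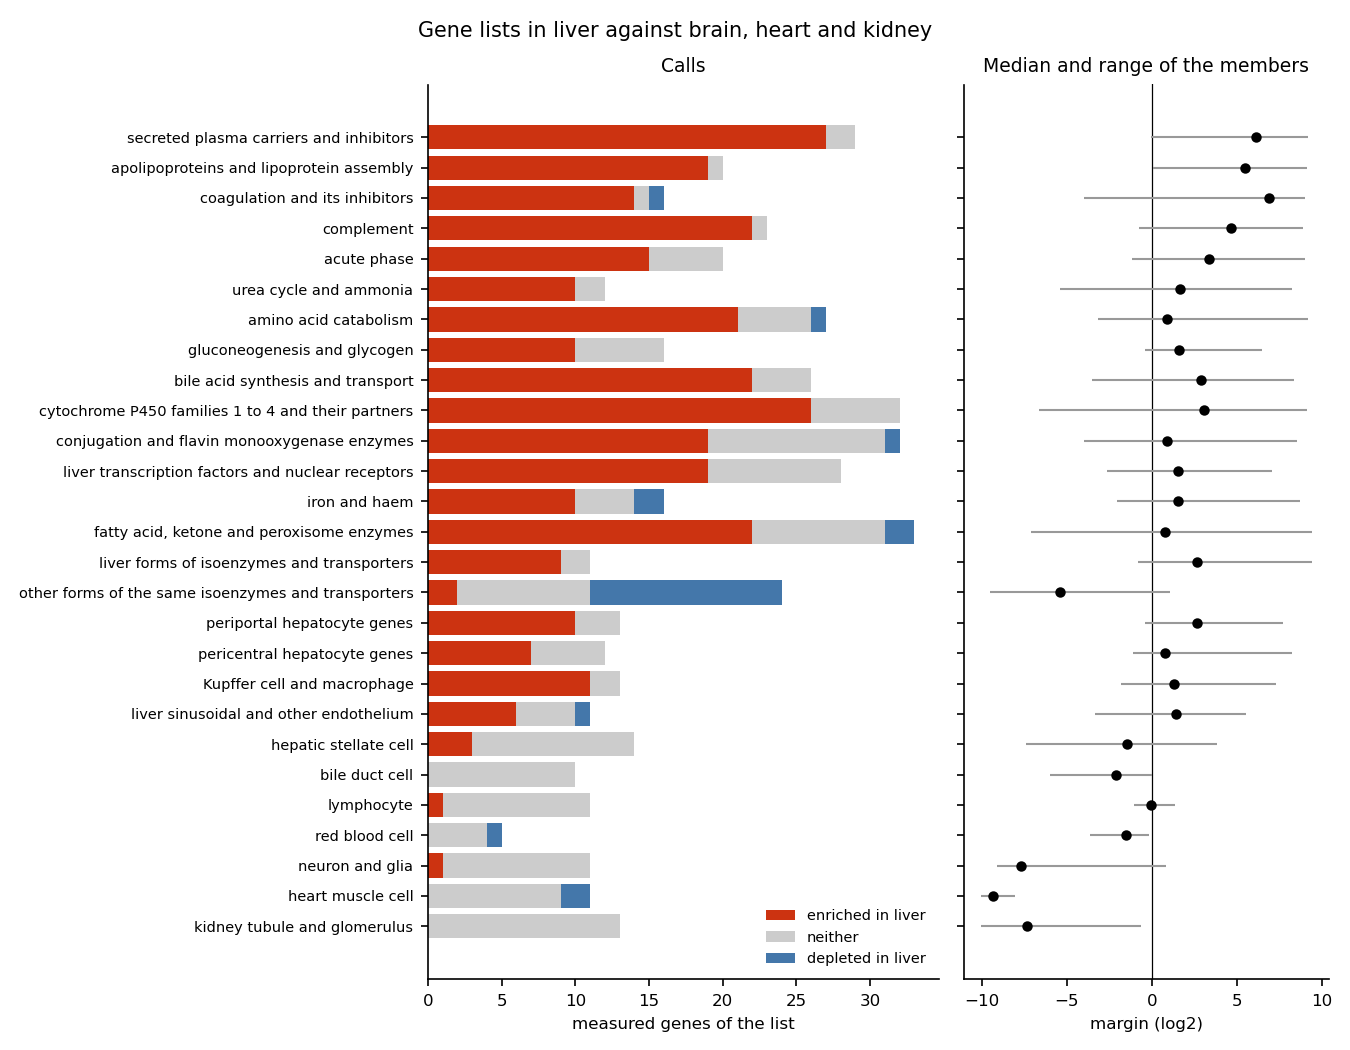
Gene lists, 1 row each. Left, how many measured genes were enriched, depleted or neither in liver (limma, adjusted p under 0.05). Right, the median margin (point) and the range of the members (line) in log2 units. Of the lists drawn, plasma, lipoprotein, clotting and complement genes have the highest medians, 4.64 to 6.86, and heart muscle, neuron and kidney tubule genes the most negative.

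The start regions of the leading genes were read from RefSeq (GRCr8), 250 bases before to 50 after the annotated start, for 148 of the 187 genes with a margin of at least 4 and for 11057 of 13439 measured genes. They are shown as a description of genes that were chosen for their margins. Shared control of these genes was not tested. Capitals mark TGTTTAC or TGTTTGC, letters known from FOXA binding sites, and TATAAA, the TATA box, on either strand, in the 3 genes with the largest margins whose region held both kinds of letters and in albumin. In Rgcc, the most depleted gene with such a match, capitals mark GGGCGG, the GC box, on either strand.
Fabp1 (chr4:104749090-104749389, plus strand): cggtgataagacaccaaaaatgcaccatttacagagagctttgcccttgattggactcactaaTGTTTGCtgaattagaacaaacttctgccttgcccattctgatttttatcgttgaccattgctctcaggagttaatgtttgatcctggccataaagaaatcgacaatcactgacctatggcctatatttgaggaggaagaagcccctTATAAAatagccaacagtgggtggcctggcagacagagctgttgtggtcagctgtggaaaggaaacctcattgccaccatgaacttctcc
Tdo2 (chr2:169585537-169585836, minus strand): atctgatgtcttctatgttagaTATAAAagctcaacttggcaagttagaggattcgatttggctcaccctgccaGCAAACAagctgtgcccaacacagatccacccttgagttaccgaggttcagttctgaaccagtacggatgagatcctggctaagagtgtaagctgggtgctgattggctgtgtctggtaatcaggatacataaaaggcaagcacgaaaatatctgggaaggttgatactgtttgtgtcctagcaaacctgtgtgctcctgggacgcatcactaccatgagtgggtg
Cyp2c13 (chr1:248787139-248787438, minus strand): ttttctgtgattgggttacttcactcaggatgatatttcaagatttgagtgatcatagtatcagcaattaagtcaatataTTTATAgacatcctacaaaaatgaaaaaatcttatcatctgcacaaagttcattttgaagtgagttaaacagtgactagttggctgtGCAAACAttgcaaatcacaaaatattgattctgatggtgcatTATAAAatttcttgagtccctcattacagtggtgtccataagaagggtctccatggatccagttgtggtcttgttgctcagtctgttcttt
Alb (chr14:17906930-17907229, minus strand): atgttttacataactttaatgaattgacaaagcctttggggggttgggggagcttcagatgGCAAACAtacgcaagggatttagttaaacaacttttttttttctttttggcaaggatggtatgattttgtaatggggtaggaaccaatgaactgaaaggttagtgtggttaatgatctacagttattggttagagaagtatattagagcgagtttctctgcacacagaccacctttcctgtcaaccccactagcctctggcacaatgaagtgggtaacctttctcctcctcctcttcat
Rgcc (chr15:61084359-61084658, minus strand): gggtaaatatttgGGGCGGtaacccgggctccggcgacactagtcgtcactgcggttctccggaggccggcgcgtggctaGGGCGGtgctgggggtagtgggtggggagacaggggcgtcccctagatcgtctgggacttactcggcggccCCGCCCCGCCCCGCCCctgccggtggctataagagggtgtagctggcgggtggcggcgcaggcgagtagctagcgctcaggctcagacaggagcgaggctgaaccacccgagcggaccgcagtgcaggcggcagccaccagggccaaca

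TATAAA began 40 bases before the start in Fabp1 and 41 before it in Cyp2c13, while that of Tdo2 lay 228 bases before it. Either FOXA word was found in 25% of the regions of genes with a margin of at least 4, in 6.43% of those with a margin of 1 to 4, in 4.58% of those with a deficit of -1 or below, and in 5.84% of all measured genes. For TATAAA the shares were 20.9%, 10.8%, 7.55% and 8.38%. GGGCGG ran the other way, with 18.2%, 54.8%, 66.4% and 57.7%. CAAAGTCCA, from HNF4 sites, was in 2.7% of the regions of genes with a margin of at least 4 and in 0.362% of all. TTGCGCAA, from C/EBP sites, was in 0% of the 148 regions and in 0.244% of all, which says only that these letters are not in this window. A match is a description and not a site of binding.

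The enzymes of nitrogen disposal were enriched in 10 of 12 genes (median margin 1.66). Cps1, carbamoyl phosphate synthetase, which brings ammonia into the urea cycle, was 12.99, 12.69, 12.75 and 12.60 in liver, against 4.07, 4.80, 4.51 and 6.34 in brain, 3.18, 3.42, 3.75 and 4.15 in heart and 6.18, 4.66, 5.15 and 4.22 in kidney. Livers and other organs were far apart (7.70 ± 0.42, adjusted p = 4.97e-10), and the brain of rat 156 was again the highest brain. Otc, the next enzyme, had 8.26 ± 0.12 and Nags, which makes the activator of Cps1, 5.35 ± 0.15. The later steps were shared with kidney: Ass1 averaged 12.77 ± 0.12 in liver and 12.06 ± 0.16 in kidney, a margin of only 0.71 ± 0.14 (adjusted p = 0.00113). Arg1, the liver arginase that releases urea, had 6.71 ± 0.16, while Arg2, the mitochondrial form, was 3.33 to 3.89 in liver and 8.67 to 9.11 in kidney. Glul, glutamine synthetase, was 10.80 to 11.39 in liver, below the 11.71 to 11.97 of brain and the 11.90 to 12.05 of kidney and above the 9.67 to 10.23 of heart, so it was neither enriched nor depleted.

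In amino acid breakdown 21 of 27 genes were enriched and 1 was depleted (median margin 0.91). Tdo2 led, then Mat1a, which makes S-adenosylmethionine in liver (8.77 ± 0.17), Tat, tyrosine aminotransferase (6.79 ± 0.13), Hal, histidase (5.54 ± 0.14), Agxt, alanine-glyoxylate aminotransferase (5.38 ± 0.18), and Sds, serine dehydratase (5.12 ± 0.29). Mat2a, the form of methionine adenosyltransferase used outside the liver, was the depleted gene, at 9.16, 9.56, 9.43 and 8.88 in liver, against 11.02, 10.95, 10.93 and 10.90 in brain, 10.85, 10.85, 10.66 and 10.65 in heart and 12.16, 12.47, 12.47 and 12.57 in kidney. No liver reached any other array, and the deficit was -1.49 ± 0.11 (adjusted p = 5e-08); a second, dim probe set of Mat2a was not called.

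Glucose and glycogen genes were divided between genes of the liver and genes of liver and kidney. 10 of 16 were enriched (median margin 1.56), led by Gys2, liver glycogen synthase (6.47 ± 0.15), Pfkfb1, which sets the level of fructose 2,6-bisphosphate (5.95 ± 0.22), and Gckr, the glucokinase regulator (5.69 ± 0.13). G6pc1, which frees glucose in the last step, was 12.04, 11.56, 11.21 and 11.84 in liver, against 9.67, 10.31, 10.13 and 10.50 in kidney, 4.17 to 4.49 in brain and 4.12 to 5.02 in heart. Liver and kidney did not overlap, with a margin of 1.51 ± 0.19 (adjusted p = 1.67e-05). Pck1, which commits carbon to glucose, was 13.51, 13.17, 13.22 and 13.28 in liver and 13.41, 13.29, 13.13 and 13.30 in kidney, and these overlapped. Fbp1, Slc37a4, Khk and Tkfc, other members of the list, had kidney means of 13.30, 11.002, 11.07 and 10.61, beside liver means of 12.92, 11.11, 10.86 and 10.30, and were not enriched.

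Genes high in liver and kidney together were the commonest shared kind. In 135 genes the liver and kidney means were within 1 of each other and both at least 2 above brain and heart, against 15 for liver and heart and 11 for liver and brain. Hnf4a, a nuclear receptor that hepatocytes and proximal tubule cells both need, headed these by its distance from brain and heart. It was 12.09, 12.03, 12.17 and 11.79 in liver and 12.16, 12.21, 12.12 and 12.32 in kidney, against 3.37, 3.46, 3.78 and 3.76 in brain and 3.44, 3.48, 3.44 and 3.38 in heart. Liver and kidney overlapped and both lay far above the rest, and the liver minus kidney difference was -0.18 ± 0.11 (adjusted p = 0.192). Cyp2c23, an arachidonic acid epoxygenase, averaged 12.73 ± 0.04 in liver and 12.70 ± 0.12 in kidney, and Spink1l, Bhmt2, Spp2 and Rgn had liver minus kidney differences of 0.03, 0.27, 0.75 and 0.70, of which those of Spp2 and Rgn passed as enriched.

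Bile acid genes were enriched in 22 of 26 (median margin 2.88). Cyp7a1, the rate-limiting enzyme of bile acid synthesis, was 12.08, 11.44, 11.58 and 11.63 in liver, against 3.34 to 3.81 over the other 12 arrays. Cyp8b1, which makes the cholic acid branch, was 11.89, 11.76, 11.34 and 11.51 in liver, against 3.31 to 4.44. In neither did any other array reach its own median signal, and the margins were 8.11 ± 0.15 and 7.43 ± 0.16 (adjusted p = 1.93e-16 and 1.88e-15). Transporters differed among themselves. Slco1b2 had a margin of 8.35 ± 0.17, Slc10a1, which takes up bile acids from blood, 7.67 ± 0.22, Abcb11, the bile salt export pump, 7.30 ± 0.12, and Abcb4, the phospholipid carrier of bile, 2.02 ± 0.15. Slco1a1 was 10.40 to 10.69 in liver and 9.71 to 10.74 in kidney, which overlapped, and was not enriched (0.27 ± 0.16), nor was Slc51a (-3.52 ± 0.22), which kidney had more of. Baat, which joins bile acids to glycine and taurine, had 7.48 ± 0.17.

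Of the P450 families 1 to 4 and their partners 26 of 32 genes were enriched (median margin 3.09). Cyp2c13, a steroid hydroxylase of male rats, was 12.79, 12.70, 12.62 and 12.45 in liver, against 3.07 to 3.77 over the other 12 arrays. Cyp2b3 was 12.86, 12.89, 12.90 and 12.85 in liver, against 3.45 to 4.60, and Cyp1a2, which demethylates caffeine, 12.59, 12.49, 12.45 and 12.50, against 3.69 to 4.51. The livers were uniform for all of these, with margins of 9.12 ± 0.15, 8.98 ± 0.19 and 8.27 ± 0.16. Cyp2e1, which oxidises ethanol, was 13.18 to 13.20 in liver and also 10.75 to 11.29 in kidney, a margin of 2.25 ± 0.27 (adjusted p = 6.74e-06). Cyp1a1 and Cyp4b1 were not enriched, and Cyp2f4, enriched by 6.27, was 9.77 to 10.86 in the 10 lungs. Near-identical P450 genes can share probes, so the value of a single family member is uncertain. Of the conjugating enzymes 19 of 32 were enriched, with Sult1e1, the estrogen sulfotransferase, at 8.55 ± 0.18, and Gstp1, a glutathione transferase known to be low in rat hepatocytes, was depleted (-1.51 ± 0.11, adjusted p = 5.25e-08).

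Fatty acid, ketone and peroxisome enzymes were enriched in 22 of 33 genes and depleted in 2 (median margin 0.77). Uox, urate oxidase of the peroxisome, had 7.65 ± 0.16, Hao1, a peroxisomal glycolate oxidase, 5.65 ± 0.26, and Thrsp, a lipogenic regulator, 4.80 ± 0.76. Oxct1, which lets tissues burn ketone bodies and which the liver, their source, is known to lack, was 5.38, 5.42, 6.13 and 5.45 in liver, against 10.79, 10.69, 10.85 and 10.65 in brain, 12.74, 12.67, 12.61 and 12.62 in heart and 11.87, 12.48, 12.40 and 12.20 in kidney. Every liver was far below every other array, with rat 138 above the other livers. The deficit was -5.15 ± 0.13, or 35.6-fold (adjusted p = 6.32e-14).

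Isoenzymes showed the liver from both sides. Of the genes listed as liver forms 9 of 11 were enriched (median margin 2.63). Of the forms listed for other tissues 13 of 24 were depleted and 2 were enriched (median margin -5.38). Over all genes 13.1% were enriched and 10.2% depleted. The genes were listed by the tissue they are known from, so both counts were largely known in advance. Ldhb, the lactate dehydrogenase subunit of heart, was 7.23, 6.76, 7.84 and 7.19 in liver, against 12.86, 12.80, 12.84 and 12.80 in brain, 13.47, 13.37, 13.40 and 13.34 in heart and 12.67, 12.73, 12.68 and 12.77 in kidney. Its deficit of -5.46 ± 0.13 was 43.9-fold (adjusted p = 4.88e-14). Hk1 and Pkm, the hexokinase and pyruvate kinase of most other tissues, had deficits of -3.29 ± 0.10 and -3.39 ± 0.12. Fabp3, the fatty acid binding protein of heart, had -3.85 ± 0.08, and Gys1, the muscle glycogen synthase, -1.81 ± 0.12. Other probe sets of Hk1 were dim and not called.

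The 2 forms that did not follow the list were Fabp7 and Acaca. Fabp7, known as the brain fatty acid binding protein, was 11.18, 11.52, 10.59 and 10.83 in liver and 10.45, 10.02, 9.82 and 9.54 in brain, against 3.69 to 3.88 in heart and 3.40 to 3.52 in kidney. Each liver was above every brain, by a margin of 1.07 ± 0.17 (adjusted p = 0.000156). Acaca, the acetyl-CoA carboxylase of fat synthesis, which lipogenic tissues such as liver are known to use, was enriched by 0.77 ± 0.14 (adjusted p = 0.000756). Among the liver forms Pfkl and Acacb were not enriched.

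**Figure D3:**
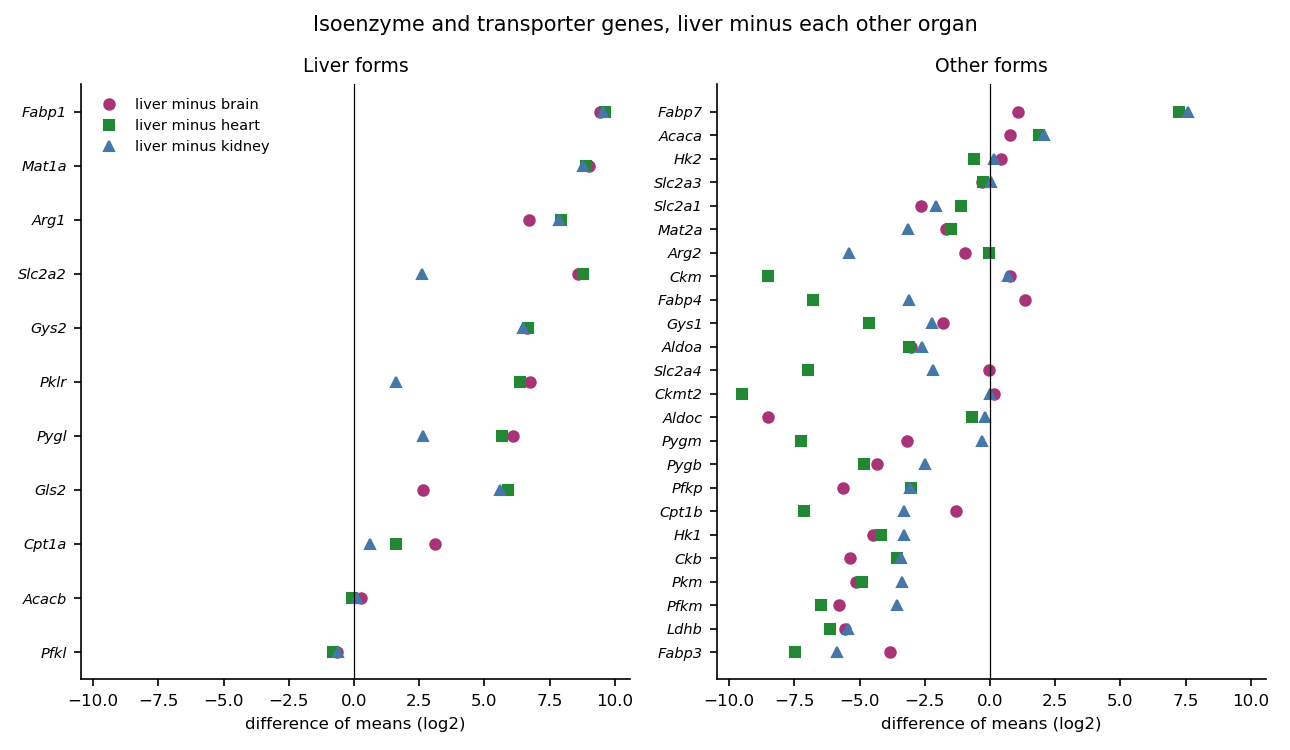
Difference of means, liver minus brain, liver minus heart and liver minus kidney (log2), for 11 genes listed as liver forms (left) and 24 listed as forms of other tissues (right). Points right of 0 are higher in liver. Most liver forms lie to the right for all 3 organs, and Ldhb, Pfkm, Pkm and Fabp3 lie to the left for all 3.

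The gene with the most negative deficit was Rgcc, a regulator of the cell cycle that responds to complement, at 3.26, 3.36, 3.74 and 3.03 in liver, against 9.40, 9.32, 9.45 and 9.77 in brain, 10.68, 10.80, 10.68 and 10.36 in heart and 9.42, 10.03, 10.03 and 9.84 in kidney. The livers lay near the lower quartile of their arrays or below it and no other array came near them. The deficit was -6.14 ± 0.15 (adjusted p = 5.97e-14), set by the low end of the liver arrays, and a second, dim probe set was not called. After Ldhb and Oxct1 came Rimbp2, a synaptic scaffold gene (-5.06), B3galnt1, a globoside synthase (-4.97), Fhod3, an actin regulator of heart muscle (-4.68), Igfbp5, a carrier of insulin-like growth factors (-4.67), Tpd52l1 (-4.58), Ndrg4 (-4.42) and Ampd3, an AMP deaminase (-4.38). Depletion was of smaller size than enrichment: 573 genes had a deficit of -1 or below, 170 of -2 or below and 17 of -4 or below. In 1283 of the 1373 depleted genes every liver lay below the 12 other arrays, as did 10.8% of all genes.

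Of the transcription factors and nuclear receptors of the liver 19 of 28 were enriched (median margin 1.53). Onecut1 was 11.52, 11.16, 11.53 and 11.003 in liver, against 4.24, 4.12, 4.29 and 4.22 in brain, 3.84, 3.91, 3.93 and 4.32 in heart and 3.71, 3.73, 3.64 and 3.68 in kidney. The livers lay well above all others, and the margin was 7.08 ± 0.15 (adjusted p = 1.36e-15). Creb3l3, a membrane-bound factor that acts on fasting and lipoprotein genes, had 6.78 ± 0.14, Foxa2 6.55 ± 0.13, Foxa1 4.31 ± 0.15, Foxa3 3.88 ± 0.25, Nr1i3, the xenobiotic receptor CAR, 4.37 ± 0.19, and Nr1i2, the xenobiotic receptor PXR, 3.89 ± 0.16.

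Several of these factors were not limited to the liver. Foxa2 was 9.91 to 10.37 in the 4 livers and 9.69 to 10.79 in the 10 lungs, ranges that overlap. Nr1h4, the bile acid receptor FXR, was 9.91, 9.78, 9.96 and 10.43 in liver and 9.01, 8.99, 8.89 and 9.53 in kidney, a margin of 0.92 ± 0.11 (adjusted p = 1.03e-05). Nr0b2, its target SHP, was 8.89, 9.59, 9.36 and 9.50 in liver and 7.55, 7.41, 7.48 and 7.47 in heart (1.86 ± 0.15, adjusted p = 1.04e-07). Cebpa averaged 5.67 ± 0.16 in liver, dim for its probe set but above every other array (2.23 ± 0.13). Ppara did not pass (0.47 ± 0.18, adjusted p = 0.135). Of the 187 genes with a margin of at least 4, 183 were also above all 10 lungs in each liver, and the 4 that were not were Foxa2, Cyp2f4, Scd and Slc39a4.

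Markers of the liver's other cells were enriched to differing degrees. Of the Kupffer cell and macrophage list 11 of 13 were enriched (median margin 1.29). Clec4f, a lectin of Kupffer cells, was 11.33, 11.39, 10.90 and 11.39 in liver, against 3.55 to 4.40 over the 12 other arrays, and Cd5l, a secreted macrophage protein, was 11.23, 11.25, 10.60 and 11.04, against 3.40 to 3.89. The livers stood far above the other organs in both (7.03 ± 0.16 and 7.30 ± 0.16). Macrophage genes that every organ has differed less: C1qa had 1.26 ± 0.14 and Csf1r, the receptor that macrophages need, 0.61 ± 0.15.

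Endothelial genes were mixed, with 6 of 11 enriched and 1 depleted. Stab2, the hyaluronan scavenger receptor of liver sinusoids, was 8.81, 8.53, 8.52 and 9.06 in liver, against 3.80 to 4.82 over the other arrays, and Dnase1l3 had 5.54 ± 0.20. Vwf, von Willebrand factor, which most sinusoidal cells are known to lack, was 5.89, 5.95, 6.13 and 6.22 in liver, against 6.997 to 9.61 elsewhere (-1.22 ± 0.16, adjusted p = 4.42e-05). Of the stellate cell list 3 of 14 were enriched, and the median margin was -1.44. Des, Dcn, Col1a1 and Pdgfrb, which other organs' muscle or connective tissue cells also express, had margins of -7.38, -4.62, -4.14 and -1.97. The enriched ones were Hgf (0.66), Lrat, which stores vitamin A as ester, at 3.80 ± 0.13, and Colec11 at 2.82 ± 0.20. None of the 10 bile duct genes was enriched or depleted by limma, and 7 of them were lower in liver than in kidney (adjusted p under 0.05, where 27.8% of all probe sets were).

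Markers of other organs were low in liver, which was known in advance from the choice of these genes and reads as a check of the tissue labels. The median margin was -7.70 for neuron and glia genes, -9.36 for heart muscle genes and -7.36 for kidney genes, against -0.48 over all genes. The enriched exception was Slc1a2, a glutamate transporter of astrocytes that pericentral hepatocytes also express (0.80 ± 0.18, adjusted p = 0.00554), whose call was lost in at least 1 fit without 1 rat and whose second probe set was not enriched. Of 5 red cell genes none was enriched and Bpgm was depleted (-0.57), though its other probe set was not called. Of lymphocyte genes only Gzma, granzyme A, was enriched among 11, by 1.38 ± 0.17. Without rat 156 the enriched counts were 9 of the Kupffer list, 18 of the lipoprotein list, 18 of the transcription factors, 11 of the glucose and glycogen list and 2 of the lymphocyte list, and those of the other lists did not move. Of periportal genes 10 of 13 were enriched (median margin 2.64), and of pericentral genes 7 of 12 (0.75).

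All rats were male, and genes known to be higher in male rat liver were enriched in 9 of 10 (median margin 6.77). Akr1b7, Rgn and Stat5b were taken off this list after values had been seen, so the count is not independent of these data. Cyp2c11, the main male steroid hydroxylase, was 13.18, 13.24, 13.32 and 13.01 in liver, against 7.67, 9.64, 9.28 and 7.004 in kidney and 3.87 to 4.93 in brain. The kidneys of rats 132 and 138 were the higher ones, and the margin was 4.79 ± 0.42 (adjusted p = 2.17e-07). Hsd3b5 had 7.82 ± 0.14 and Cyp2a2 8.49 ± 0.13. Of the genes known to be higher in female rat liver 5 of 9 were enriched as well. Cyp2c12, a female-predominant steroid hydroxylase, read 12.01, 9.95, 11.44 and 11.62 in these male livers, with rat 132 lowest, against 3.20 to 3.79 over the other arrays; a probe set of this family may also bind its relatives. No female rat was on the arrays analysed here, so no difference between the sexes could be measured.

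The livers agreed closely with each other for most genes. The SD over 4 livers had a median of 0.16 over enriched genes and 0.17 over all genes. A few enriched genes varied by several log2 units. Obp3, an alpha-2u-globulin gene that male rat livers secrete, was 12.06, 9.74, 11.74 and 9.12 in the Air livers, and the PH3 livers were 12.44, 10.54, 11.68 and 10.48 at 6 h (rats 128, 134, 140 and 141) and 11.74, 11.50 and 12.46 at 3 h (rats 105, 111 and 122). Akr1b7, an aldose reductase gene, was 5.63, 5.21, 4.53 and 9.995 in the Air livers and 4.23, 9.73, 6.53 and 4.29 in the PH3 livers at 6 h. Rat 156 stood far above the other Air livers and PH3 rat 134 above the other PH3 livers at 6 h. Obp3 also read 8.89 in the brain of rat 126, against 3.40 to 5.22 in the other brains, hearts and kidneys.

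A1bg, known to be higher in female rats, had the same 2 rats on top: 4.79, 5.27, 4.19 and 8.09 in the Air livers, and 4.69, 7.45, 5.60 and 4.62 in the PH3 livers at 6 h. Without rat 156 the margin of A1bg was 1.10 ± 0.18, against 1.94 ± 0.48 with it, and that of Akr1b7 1.33 ± 0.19, against 2.62 ± 0.69 with it. Cdh17, a cadherin known from intestine and liver, was 5.85, 4.59, 9.32 and 9.15 in the Air livers, low in rats 126 and 132. Adh7, an alcohol dehydrogenase of the stomach, was 7.38, 4.52, 4.79 and 4.42, high in rat 126, and Duoxa1, a maturation factor of an oxidase, 3.94, 5.22, 7.09 and 6.67. With SDs of 2.48 (Akr1b7), 2.38 (Cdh17), 1.73 (A1bg), 1.45 (Obp3), 1.44 (Duoxa1) and 1.41 (Adh7), these were the 6 most variable enriched genes.

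**Figure D4:**
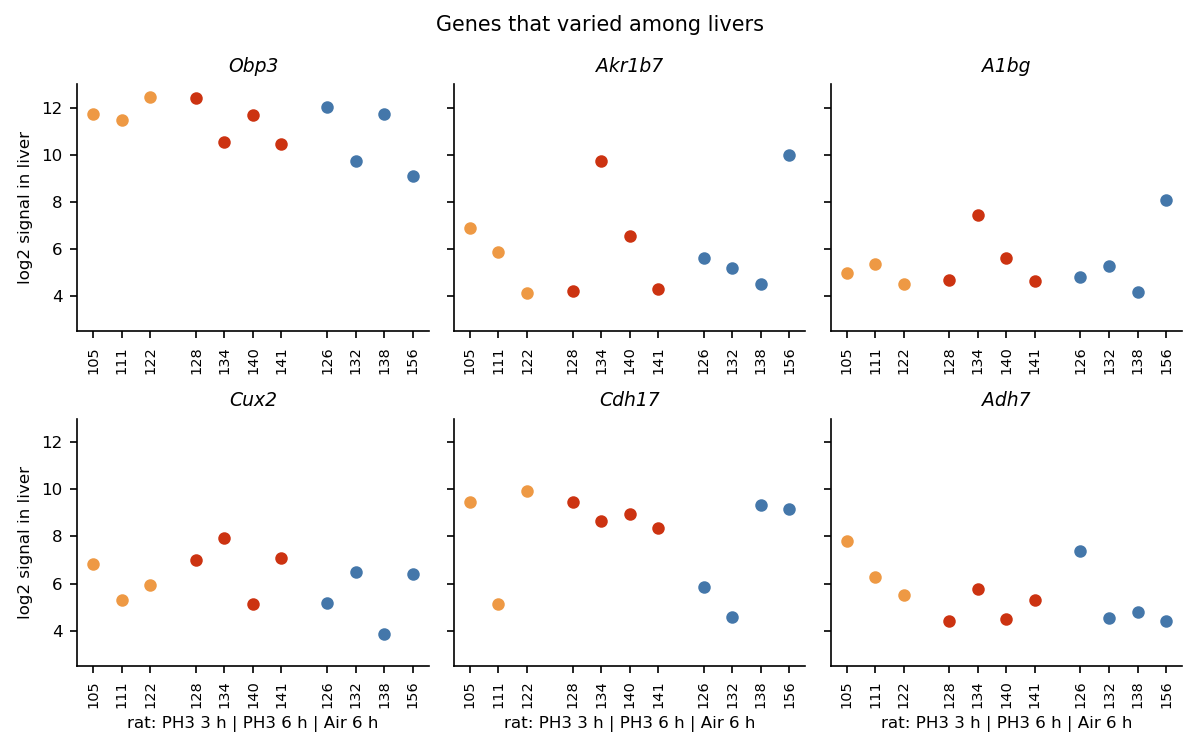
Log2 signal in each of the 11 livers, PH3 at 3 h (orange), PH3 at 6 h (red) and Air at 6 h (blue), 1 point per rat, for 5 of the most variable enriched genes and for Cux2, a liver factor known to be higher in female rats. Akr1b7 and A1bg are highest in Air rat 156 and PH3 rat 134.

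The same comparison was made in other animals, PH3 rats at 6 h, 4 arrays an organ, with the brain of rat 135 in place of that of rat 134. These rats had breathed phosphine, so the comparison repeats the organs and not the condition. There 1799 probe sets were enriched (9.43%). Of these, 1578 were enriched in the Air rats too, which is 87.7% of the PH3 list and 65.5% of the Air list. Among Air-enriched probe sets with a margin of at least 2, 479 of 489 passed in the PH3 rats, and 2334 of all 2411 had a margin above 0. Of the 187 genes with a margin of at least 4, 186 were enriched there and 171 again had a margin of at least 4.

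Leading genes, which were chosen on the Air values, had smaller margins in the PH3 rats. Over the 24 genes with the largest Air margins, PH3 margins were 6.29 to 8.80, against 8.71 to 9.43 in the Air rats. The lowest was that of Ugt2b, a glucuronosyltransferase gene, and 1 array set it. Ugt2b read 12.34, 11.63, 3.75 and 12.54 in the PH3 livers at 6 h and 12.23, 11.79 and 3.91 at 3 h, against 12.60, 12.21, 12.09 and 11.95 in the Air livers. Rats 140 and 122 were at the low end of their arrays and all other livers were high. The next lowest PH3 margin of the 24 was that of Cyp2c22 (7.38). Plasma list means were 4.60 to 5.98 in PH3 brains, against 4.47 to 5.36 in Air brains, and 5.40 to 6.45 in PH3 kidneys, against 5.51 to 6.00 in Air kidneys. In livers they were 11.96 to 12.21 in the PH3 rats and 12.09 to 12.27 in the Air rats, and these ranges overlapped in every organ. The mean of the 24 genes was 12.43 in the liver of PH3 rat 140 and 12.74 to 12.83 in the other PH3 livers at 6 h, against 12.82 to 12.86 in the Air livers. Ugt2b is among the 24, and its signal of 3.75 lowers the mean of rat 140. In the plasma list, which lacks Ugt2b, rat 140 had the highest mean of the PH3 livers at 6 h (12.21). The part of these values in the smaller margins was not tested. The 10 most depleted genes were all depleted in the PH3 rats, with deficits of -5.40 to -4.28, as were 6.07% of all probe sets.

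**Figure D5:**
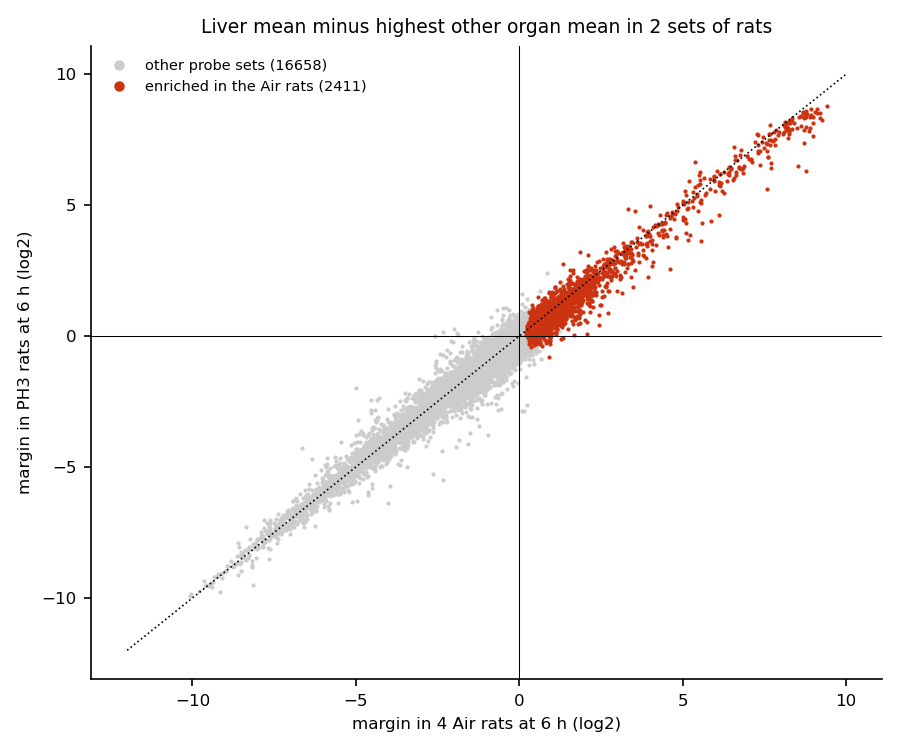
Margin (liver mean minus highest other organ mean, log2) of 19069 probe sets in the 4 Air rats (horizontal) and in the PH3 rats at 6 h (vertical). Red points are the 2411 probe sets enriched in the Air rats, grey points the rest, and the dotted line marks equal margins. Points follow the line, and those with the largest Air margins lie below it.

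The threshold cut through genes of like margin. Just inside it lay Ighvl1, Cenatac, Ogg1 and C5h1orf174 with margins of 0.56, 0.34, 0.38 and 0.35, and just outside Cdh1, Aldh1b1, Cbx2 and Maml1 with 0.70, 0.78, 0.59 and 0.45. Of the 1767 enriched genes 481 had several probe sets, and in 265 of them every probe set was enriched.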

How the data were processed

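Total RNA was amplified, biotin-labelled with a 3′ in vitro transcription kit and hybridised to Affymetrix arrays, per the labels' protocols. The deposited values are log2 signals that the authors made with RMA, and Affymetrix Expression Console and Partek are named in the submitters' processing notes; whether all organs were normalized together is not given in the sources used here. Of 31139 probe sets, 19069 had 1 gene symbol (13439 genes), 572 several and 11498 none. Names came from the platform annotation, and 18989 gene IDs matched the RefSeq table of GRCr8.

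The 16 arrays were fitted with limma 3.58.1 (R 4.3.3), with organ and rat as terms and a trended prior variance, and no filter. A probe set was called enriched or depleted when liver differed in the same direction from brain, heart and kidney, by the largest of the 3 p-values, Benjamini-Hochberg adjusted over 19069 probe sets (threshold 0.05). The adjusted p-values given come from this limma fit, except that of albumin without rat 156, which comes from a fit of the other rats. They rest on the spread left between these rats within organs once each rat's mean level is taken out, moderated by the trended prior. The PH3 rats at 6 h were fitted apart and without a block, and the PH3 calls come from that fit. On simulated data the fit recovered 98% of differences of 1 and 20% of differences of 0.5, with 0 of 200 genes shared with kidney called. Those 200 were given equal liver and kidney levels, so that result was nearly fixed in advance. Nearly all other simulated probe sets were equal in every organ, unlike the real ones, so the rates may not carry over.

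The labels give each rat's number for every organ, so rat pairs the arrays. Deviations from organ means correlated at -0.06 to 0.17 (median 0.11) between organs of the same rat and at a median of -0.03 between different rats.

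Genes were named by a rule: the 24 largest margins with every liver above the other arrays, the 10 most negative deficits, up to 6 enriched members of each list, the members of the transcription factor, isoenzyme and sex lists, 8 genes shared with kidney, the 6 most variable enriched genes, and 4 genes on each side of the threshold. Other list members, and list members that failed the test, were named after their values were seen. The members and lists were chosen with earlier results of these data known, and Akr1b7, Rgn and Stat5b were taken off the male list after values had been seen. Alternatives were other blocks, scalings, filters, array weights, variance priors and fits without 1 rat.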

Additional observations from a re-analysis of the deposited data

Results flagged for a closer look

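In 48 genes and 4 organ means, 1 array of a group of 4 was looked for that stood far from the other 3 by Dixon's criterion. Chance flags about 1 in 20 groups. Of the 48 genes 2 were flagged in liver, which is near that rate. Oxct1 read 6.1267 in the liver of rat 138, against 5.38 to 5.45 in the other Air livers. Adh7, which had been named for its SD over these same livers, read 7.3782 in the liver of rat 126, against 4.42 to 4.79 in the others. The mean signal of the 27 enriched plasma genes was 5.362 in the brain of rat 156, against 4.47 to 4.55 in the other Air brains. Probe sets without a gene symbol, which no comparison above used, also held liver signal: 836 of 11407 were enriched (7.33%), 140 of them with a margin of at least 2 and 38 with a margin of at least 4.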

How the results depend on the processing

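The count of 2411 enriched probe sets was 2376 without the replicate block and 2416 with rat as a random block, and that of 1616 depleted ones 1600 and 1627. Leaving out each rat in turn gave 2052 to 2121 enriched and 1359 to 1426 depleted probe sets, 13468 to 13807 calls for liver minus brain, 10578 to 10881 for liver minus heart and 9272 to 9467 for liver minus kidney. Setting liver against the mean of the other organs, in place of the highest, gave 6612 enriched probe sets, since one low organ is then enough. Asking for a difference of at least 1 in each contrast (TREAT) gave 683. The 836 enriched probe sets without a gene symbol were fitted apart, an alternative chosen after the data were seen. The other alternatives stayed within 1.5 times each count, from 1767 (1 probe set a gene) to 3074 (arrays set to the same median) for enriched probe sets. In the PH3 rats 1799 probe sets were enriched, 1674 with a replicate block over the 3 rats with all organs, and 1289 to 1672 without 1 rat. Of the 141 enriched genes that the naming rule gave, 131 were enriched in all 4 fits without 1 rat; Ahr, Akr1b7, C5h1orf174, Cenatac, Dbp, Duoxa1, Hgf, Ighvl1, Ogg1 and Slc1a2 were lost in at least 1. No named gene turned direction. With 4 arrays an organ, and with signals bounded by background below and by saturation above, small differences and the order of the largest ones are the least certain.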

Other observations

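Genes that the liver shared with one other organ at a like level were few beside those it shared with kidney, and they were named after their values were seen. Of 15 genes shared with heart, Hjv, the co-receptor that drives hepcidin transcription, averaged 10.35 in liver and 11.11 in heart, against 3.49 in brain and 4.14 in kidney (log2 signal, means of 4 arrays). Pdk4, the kinase that shuts off pyruvate dehydrogenase in fasting, averaged 9.63 in liver and 10.28 in heart, against 5.96 in brain and 7.06 in kidney. Dsg2, a desmosome cadherin, averaged 10.28 in liver and 9.82 in heart, against 4.22 in brain and 7.11 in kidney.

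Of 11 genes shared with brain, Ttr was the brightest. Enpp2, which encodes autotaxin, the secreted enzyme that makes lysophosphatidic acid, averaged 11.63 in liver and 11.78 in brain, against 8.43 in heart and 7.92 in kidney. Reln, which encodes reelin, a matrix protein known from brain neurons and from hepatic stellate cells, averaged 10.15 in liver and 10.95 in brain, against 6.20 in heart and 5.78 in kidney. A2m, a broad protease inhibitor of plasma, averaged 8.58 in liver and 8.03 in brain, against 3.87 in heart and 4.73 in kidney.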
